A study of Homo sapiens with 12 samples.

Results

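The genes TBX15, ALX1, VAT1L and MAP3K13 are 4 of the 28278 genes counted in RNA-sequencing libraries of human embryonic stem cells (hESCs) of the line WA26. They were chosen on measured values, for low counts in all knockout libraries compared with WT libraries, so their difference between genotypes is described here without a test. The libraries were made from total RNA of WT cells and of cells in which UBQLN1 had been deleted with CRISPR/Cas9 (KO). The 8 libraries analysed fall into 4 groups of 2: WT at normal O2, KO at normal O2, KO at 5% O2, and KO with N-acetyl-L-cysteine (NAC), an antioxidant. The labels also describe WT cells at 5% O2 and WT cells with NAC, which were not analysed here, so a response to treatment can be described for KO cells only. The paper's scheme has both treatments lasting several passages, but its text describes RNA sequencing of low-O2 cultures after hours. The treatments may therefore differ in duration, and cells of the 4 groups in time in culture. The clone behind each library is not named in the labels, and a difference between genotypes cannot be told apart from a difference between clones. The labels call the treatment of KO cells at normal O2 none, and do not say whether they received the vehicle of NAC. Nothing in the labels says that the 2 libraries of a group came from separate cultures, so p-values measure the spread between these libraries. In its comparison of O2 levels the paper calls the 2 replicates of a group biological, without saying whether they were separate cultures or clones. Total counts ran from 31236968 in the second KO library with NAC to 41639350 in the first KO library at 5% O2.

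TBX15 encodes a T-box transcription factor of the developing skeleton and the mesenchyme of limb and face. ALX1 encodes a paired-type homeodomain protein needed for the mesenchyme of the face. MAP3K13, also called leucine zipper-bearing kinase, is a mixed-lineage kinase upstream of JNK. VAT1L is related in sequence to the vesicle membrane protein VAT1 and belongs to the oxidoreductases that lack zinc. UBQLN1 is a shuttle factor that carries ubiquitinated proteins to the proteasome. None of the 4 genes is a marker of undifferentiated hESCs.

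UBQLN1 followed the labels in every library. It stood at 221 and 197 CPM (counts scaled to library size) in WT, at 42.3 and 43.5 CPM in KO at normal O2, at 51.9 and 47.7 CPM at 5% O2 and at 62.4 and 49.3 CPM with NAC. KO cells differed from WT cells at normal O2 by -2.29 on the log2 scale (SE 0.12, adjusted p = 2.5e-06, quasi-likelihood test of edgeR adjusted by Benjamini-Hochberg), and all 6 KO libraries lay below both WT libraries. Some UBQLN1 mRNA remained, and counts do not show whether it encodes protein. The paper examined UBQLN1 protein in WT and KO clones separately, by Western blot. The 12 pluripotency markers were above 0 in every library and summed to 7144 and 7103 CPM in WT, to 7127 and 6879 CPM in KO, to 6956 and 6813 CPM at 5% O2, and to 6447 and 6026 CPM with NAC. None of these 12 markers was called in KO against WT by edgeR (adjusted p under 0.05), 4 had an unadjusted p under 0.05, and DESeq2 called 0. Of all tested genes, 1.34% were called higher and 0.622% lower in KO, so 0 of 12 sets them apart from no other genes. With NAC, 3 of the 12 were called higher and 5 lower against KO at normal O2, where 23.8% of all tested genes were called higher and 20.8% lower. DNMT3B, the most abundant, stood at 2553 and 2455 CPM in KO at normal O2 and at 1136 and 1418 CPM with NAC. The 9 neuroectoderm markers, with NES as the most abundant, summed to 465 and 417 CPM in WT, 698 and 697 CPM in KO, 405 and 509 CPM at 5% O2, and 247 and 285 CPM with NAC. NES alone stood at 266 and 226 CPM in WT and at 451 and 422 CPM in KO, so it carries most of these sums. Of the 7 tested, edgeR called only NES in KO against WT, as higher, and DESeq2 called 2. With NAC, edgeR called 1 higher and 2 lower, beside the shares of all tested genes given above. The part of these shifts in the results with NAC was not tested.

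The first library with NAC stood apart from the other 7 in genes of mesenchyme, the loose tissue from which connective tissue and skeleton form. In that library DCN, a proteoglycan of connective tissue, had 1809 counts (47.2 CPM) and COL3A1, a fibrillar collagen, had 1114 counts (29.1 CPM), while the second library with NAC had 0 counts of both. PRRX1, a homeobox gene of limb and face mesenchyme, had 403 counts there and 0 in each of the other 7 libraries. TBX18, a close relative of TBX15, had 67 counts there and 0 in the others. The fibroblast list of 7 genes summed to 935 CPM in that library and to between 511 and 627 CPM in the others, with THY1, which hESCs also express, as its most abundant gene. Of the 7, DCN, LUM and COL3A1 were at 0 in the second library with NAC, and none was at 0 in the first. The filter on low counts removed DCN, LUM, COL3A1, PRRX1 and TBX18 from the test. Among the 8 mesoderm markers KDR was the most abundant, at 81.4 CPM in this library. The 8 summed higher in this library than in any other KO library, but lower than in WT. They summed to 125 and 129 CPM in WT, 75.6 and 75.7 CPM in KO at normal O2, 58.8 and 63.8 CPM at 5% O2, and 94.3 and 78.2 CPM with NAC. KDR alone made up most of these sums, at 116 and 121 CPM in WT and 67.8 and 67.7 CPM in KO at normal O2. Of the 7 tested, only KDR was called in KO against WT (log2 fold change -0.80, adjusted p = 0.0012 by edgeR), where 0.622% of all tested genes were called lower. TWIST2, a mesenchymal regulator, had 53 and 88 counts in WT, 0 in both KO libraries at normal O2 and at 5% O2, and 78 and 0 with NAC. These genes were singled out after their values were seen, and bulk counts cannot tell fewer cells of a type from less RNA per cell.

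**Figure D1:**
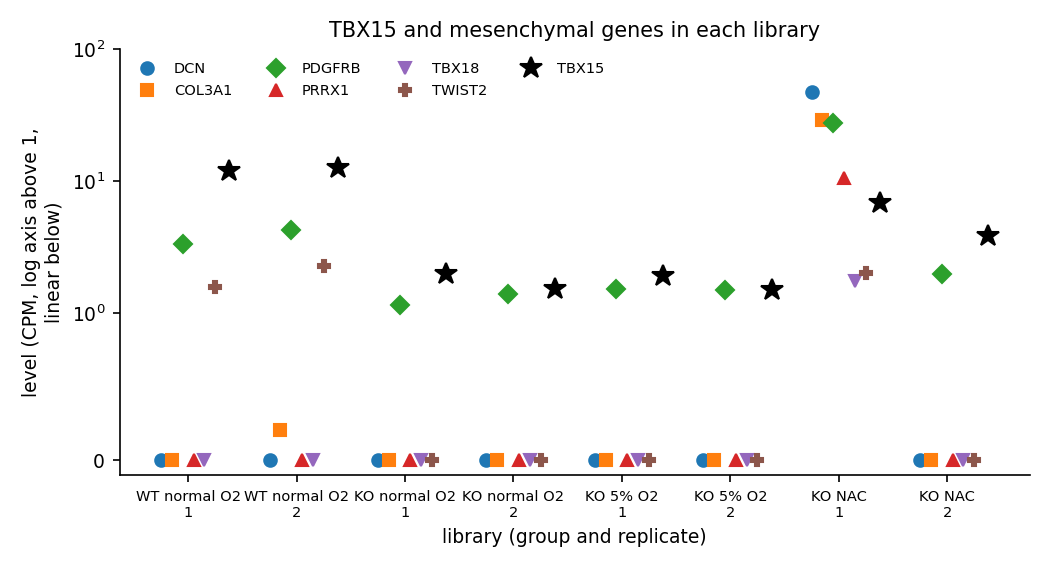
Level in CPM (log axis above 1, linear below) of TBX15 (star) and of 6 mesenchymal genes in each of the 8 libraries. Of the 7, DCN, PRRX1 and TBX18 are above 0 only in the first library with NAC, while TBX15 is above 1 CPM in all 8 libraries.

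The promoters of 2 of the 4 genes could be shown, since only VAT1L and MAP3K13 matched the RefSeq promoter table of GRCh38.p14, while TBX15 and ALX1 did not. They are shown because both genes were low in the same libraries. Each sequence starts 250 bases before the start of the gene and ends 50 bases after it, and capitals mark CpG dinucleotides. The VAT1L window is chr16:77788314-77788613 on the plus strand and the MAP3K13 window is chr3:185282711-185283010 on the plus strand.
VAT1L: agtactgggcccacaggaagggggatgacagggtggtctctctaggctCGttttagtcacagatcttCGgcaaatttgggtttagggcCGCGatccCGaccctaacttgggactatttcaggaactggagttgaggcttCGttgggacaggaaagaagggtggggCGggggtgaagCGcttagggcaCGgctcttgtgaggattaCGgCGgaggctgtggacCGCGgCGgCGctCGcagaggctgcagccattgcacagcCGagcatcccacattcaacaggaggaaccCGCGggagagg
MAP3K13: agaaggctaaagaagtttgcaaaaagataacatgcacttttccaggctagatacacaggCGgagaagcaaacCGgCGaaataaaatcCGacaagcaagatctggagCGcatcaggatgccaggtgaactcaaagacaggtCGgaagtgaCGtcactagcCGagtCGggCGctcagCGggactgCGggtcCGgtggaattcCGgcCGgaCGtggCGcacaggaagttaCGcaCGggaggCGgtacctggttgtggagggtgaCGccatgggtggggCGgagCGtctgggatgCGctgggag
The VAT1L window held 19 CpG dinucleotides at 60.0% GC and the MAP3K13 window held 24 at 58.0% GC, against a median of 14 CpG over the 35116 promoters in the table. Fewer CpG were held by 57.1% of all promoters for VAT1L and by 66.1% for MAP3K13. Motifs were searched on both strands. Each window held 1 match to GGGCGG, which 45.0% of all promoters hold. Neither held TATAAA, present in 11.5% of promoters, or CCAAT, present in 34.6%. Neither held CACGTG, present in 7.26%, or the T-box motif AGGTGTGA, present in 0.98%. Neither held the paired-type homeodomain motif, TAAT followed after 3 bases of any kind by ATTA, present in 0.365%. A match describes letters in the window and not a bound site.

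TBX15 lies on the minus strand of chromosome 1, from 118883047 to 118989510 (GRCh38.p14). It had 399 and 490 counts in the WT libraries, 73 and 63 in KO at normal O2, 79 and 48 at 5% O2, and 264 and 116 with NAC. In normalised levels this was 11.96 and 12.7 CPM in WT, 1.98 and 1.53 CPM in KO, 1.94 and 1.496 CPM at 5% O2, and 6.89 and 3.87 CPM with NAC. The WT libraries were highest and the KO libraries with NAC came next, while KO at normal O2 and at 5% O2 overlapped. As a mean, KO held 14.2% of the WT level at normal O2, 13.9% at 5% O2 and 43.7% with NAC. TBX15 was therefore reduced rather than silenced in KO cells.

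ALX1 lies on the plus strand of chromosome 12, from 85280220 to 85301784. It had 61 and 61 counts in WT, 6 and 0 in KO at normal O2, 12 and 6 at 5% O2, and 2 and 5 with NAC. The levels were 1.83 and 1.58 CPM in WT and from 0 to 0.294 CPM in the 6 KO libraries, with a median of 0.165 CPM. The library with 0 counts allows up to 0.0729 CPM, the level of 3 counts. Every WT library lay above every KO library. Both libraries at 5% O2, on 12 and 6 counts, lay above the other 4 KO libraries, while KO at normal O2 and KO with NAC overlapped. The highest KO library held 17.3% of the WT mean. From summed counts, ALX1 was 22.1-fold lower in KO at normal O2, 6.86-fold at 5% O2 and 16.5-fold with NAC. These folds describe the values that chose the gene and are no test. At normal O2 the fold leans on the library with 0 counts, and without it the fitted log2 value was -3.36 in place of -4.39.

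VAT1L lies on the plus strand of chromosome 16, from 77788564 to 77980107. It had 645 and 703 counts in WT, 134 and 137 in KO at normal O2, 138 and 128 at 5% O2, and 69 and 146 with NAC. The levels were 19.3 and 18.2 CPM in WT, 3.63 and 3.33 CPM in KO, 3.39 and 3.99 CPM at 5% O2, and 1.80 and 4.88 CPM with NAC. The KO groups overlapped, and the libraries with NAC held both the lowest and the highest KO value. VAT1L was also reduced rather than silenced, at 18.5% of the WT mean at normal O2, 19.6% at 5% O2 and 17.8% with NAC.

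MAP3K13 lies on the plus strand of chromosome 3, from 185282961 to 185489094. It had 223 and 211 counts in WT, 8 and 16 in KO at normal O2, 16 and 5 at 5% O2, and 15 and 10 with NAC. The levels were 6.68 and 5.47 CPM in WT and from 0.156 to 0.392 CPM in the 6 KO libraries, with a median of 0.361 CPM. The KO groups overlapped, and near loss held in all 6 KO libraries, at between 2.56% and 6.46% of the WT mean. From summed counts it was 19.6-fold lower in KO at normal O2, 20.9-fold at 5% O2 and 16.5-fold with NAC, again a description of the values that chose the gene.

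**Figure D2:**
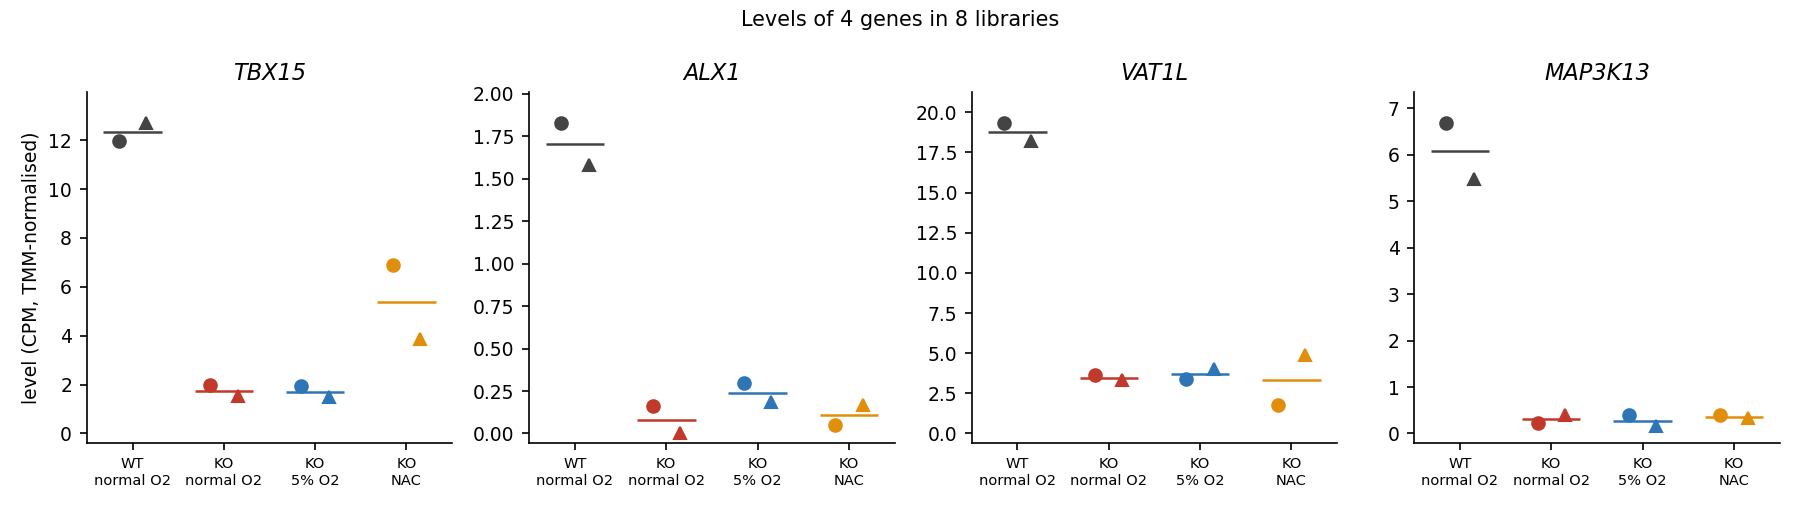
Level of each of the 4 genes in CPM (linear axis, TMM-normalised) in the 8 libraries, with circles for replicate 1, triangles for replicate 2 and a line at the mean of each group. WT libraries lie above all KO libraries for each gene, and TBX15 with NAC, at 6.89 and 3.87 CPM, and ALX1 at 5% O2, at 0.294 and 0.187 CPM, lie above the other 4 KO libraries of the same gene.

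In WT the 4 genes differed in level. Per kilobase of exonic sequence, the means in WT were 4.58 CPM for VAT1L, 2.84 CPM for TBX15, 1.28 CPM for ALX1 and 0.48 CPM for MAP3K13. The exonic lengths joined all annotated transcripts and were 4103, 4344, 1332 and 12604 bases in the same order, so a gene with long alternative exons is given a low value on this scale. On the log2 scale, the difference between KO and WT was -2.81 for TBX15, -4.39 for ALX1, -2.43 for VAT1L and -4.30 for MAP3K13, a description of the values that chose the genes. Of all 15916 tested genes, 0.622% were called lower and 1.34% higher in KO against WT. All 4 genes passed the filter on low counts, but in the KO libraries alone only 1 library for ALX1 and 4 for MAP3K13 reached the filter's level of 0.275 CPM, so ALX1 passed through its WT level.

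The separation of WT from all KO libraries was set beside all tested genes as a description. Every WT library lay above every KO library for 6.18% of tested genes. A gap of at least 4-fold between the lowest WT and the highest KO library, with WT at 1 CPM or more, was held by 12 genes, or 0.0754%. MAP3K13 was second by this gap (13.9-fold) and ALX1 was seventh (5.37-fold). VAT1L lay just outside, at 3.74-fold, and TBX15 was far outside at 1.74-fold and rank 50, because of its level with NAC. Without the libraries with NAC, an alternative chosen after seeing the data, TBX15 had a gap of 6.04-fold and rank 10. The largest gap belonged to TRMT12 (29.5-fold), a gene of tRNA modification, followed after MAP3K13 by LOC101928595 (11.04-fold), the chaperone gene DNAJA4 (8.79-fold), LRRC37A11P (7.39-fold) and the myosin gene MYH2 (5.71-fold). FEZF1.AS1 (5.23-fold), TEX13B (4.40-fold) and TYW1B (4.28-fold) completed the first 10. In the other direction, with the lowest KO library at 1 CPM or more, 5 genes lay at least 4-fold higher in the lowest KO than in the highest WT library: ZNF723, TRIM4, ZNF560, PCDHA7 and ZNF562. ZNF723 had 0 counts in both WT libraries and from 3.49 to 8.68 CPM in KO. With a minimum of 0.5 CPM there were 8 such genes, and 12 without the second WT library.

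**Figure D3:**
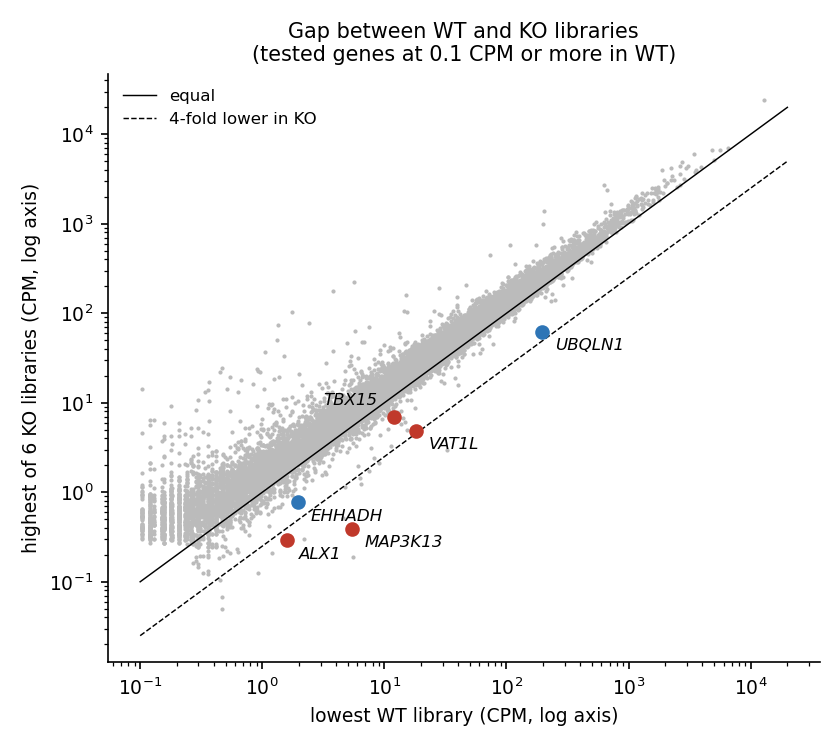
Lowest WT library against highest KO library in CPM (both log axes) for tested genes at 0.1 CPM or more in the lowest WT library, with the 4 genes in red, UBQLN1 and EHHADH in blue, a solid line at equal levels and a dashed line at 4-fold lower in KO. MAP3K13 and ALX1 lie below the dashed line, VAT1L lies close to it at 3.74-fold, and TBX15 lies near the solid line at 1.74-fold.

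The treatments were tested in KO cells. The genes were chosen for low levels in all 6 KO libraries, which limits any rise that could be seen but does not set the direction between KO groups. ALX1 passed the filter only through WT, so its values are a description. With NAC, TBX15 rose by 1.62 on the log2 scale against KO at normal O2 (SE 0.29, 95% interval from 1.00 to 2.25, adjusted p = 0.00072 by edgeR). Both libraries with NAC, at 6.89 and 3.87 CPM, lay above both KO libraries at normal O2. VAT1L and MAP3K13 did not pass the test with NAC. On the same scale VAT1L changed by -0.08 (95% interval from -0.82 to 0.67) and MAP3K13 by 0.25 (from -0.84 to 1.34). The fitted value of ALX1 was 0.41, on 2 and 5 counts with NAC. So 1 of these 3 genes, ALX1 left aside, was called higher with NAC, where 23.8% of all tested genes were called higher and 20.8% lower, and nothing is read from that share. Whether TBX15 responded differently from the other 3 genes was not tested.

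With O2 lowered to 5%, edgeR called 0 of the 3 genes other than ALX1, and 0 had an unadjusted p under 0.05. DESeq2 gave an adjusted p for TBX15 and VAT1L alone and called 0 of these 2. The log2 fold changes against KO at normal O2 were -0.02 for TBX15 (95% interval from -0.68 to 0.63), 0.08 for VAT1L (from -0.66 to 0.82) and -0.11 for MAP3K13 (from -1.23 to 1.00). The fitted value of ALX1 was 1.60. Of all tested genes, 3.68% were called higher and 4.13% lower at 5% O2. ALX1 rests on 6 and 0 counts in KO at normal O2 and 12 and 6 counts at 5% O2.

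**Figure D4:**
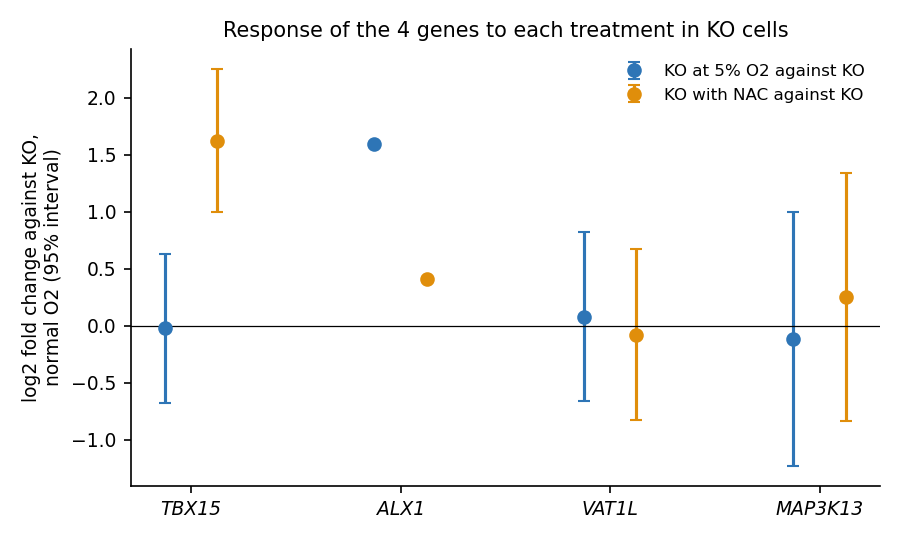
Log2 fold change of each gene in KO cells at 5% O2 and with NAC against KO cells at normal O2, with 95% intervals from edgeR's fit for the 3 genes other than ALX1, whose values rest on at most 12 counts in any KO library and are drawn without an interval. The interval for TBX15 with NAC, from 1.00 to 2.25, lies above 0, and the other 5 intervals include 0.

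Without the first library with NAC, TBX15 still rose, by 1.14 on the log2 scale (adjusted p = 0.0028 by edgeR), with 3.87 CPM in the second library, where DCN, COL3A1, LUM, PRRX1 and TBX18 had 0 counts. Without the second, the value was 1.98 (adjusted p = 1.8e-05 by edgeR), and over all alternatives the adjusted p ran from 8.1e-09 to 0.0144. Whether the first library with NAC holds RNA of other cells was not tested. What raised TBX15 in either library with NAC, and the part of the mesenchymal genes in it, were not tested either. For VAT1L the first library was the lowest of all KO libraries (1.80 CPM) and the second the highest (4.88 CPM). Without the second library VAT1L fell by 0.95 with NAC (adjusted p = 0.0036 by edgeR), and without the first it had a value of 0.48 (adjusted p = 0.071), so 1 library decides its direction. Over all alternatives for VAT1L the adjusted p ran from 0.0036 to 0.985.

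Relatives of the 4 genes were examined as gene lists. In KO against WT, 1.34% of all tested genes were called higher and 0.622% lower, so 0 calls in a short list say nothing about that list. Of the other 9 tested T-box genes, edgeR called 0 in KO against WT, 3 had an unadjusted p under 0.05 and DESeq2 called 2 of 7 with an adjusted p. With either library with NAC left out, edgeR called more of these T-box genes, and also more of all tested genes. The median log2 fold change of the 9 was 0.40, against -0.0024 over all tested genes. With NAC, where 20.8% of all tested genes fell and 23.8% rose, 3 of these 9 fell: TBX3 (log2 fold change -2.14, SE 0.47), TBX1 (-0.99, SE 0.17) and MGA (-0.76, SE 0.12). TBX3 changed by -3.38 without the first library with NAC and by -1.53 without the second. The neural crest and craniofacial list, to which ALX1 belongs, had 19 other tested genes. Of these PAX7 and BARX1 rose in KO, by 0.93 and 1.15 on the log2 scale (adjusted p = 0.00084 and 0.00042 by edgeR), where 1.34% of all tested genes rose, and the median of the 19 was 0.20. With either library with NAC left out, more of the 19 were called, and more of all tested genes as well. The 4 genes were chosen on low KO levels, so this does not compare them with their families. With NAC, against the same 20.8% of all tested genes, 10 of the 19 fell, among them FOXC2 (-2.88), ETS1 (-1.23), FOXC1 (-0.85) and SOX9 (-0.84), and TWIST2 alone was called higher, on the 78 counts of the first library with NAC. ETS1 changed by -1.99 without the first library with NAC and by -0.75 without the second. The calls of TWIST2 and FOXC2 rest on few counts. With 1 library left out in turn, FOXC2 ran from -7.31 to -2.03. TWIST2 was not called without the first library with NAC, without either KO library at normal O2, or by DESeq2. FOXC2 was not called without the second library with NAC (-2.03), either KO library at normal O2, either at 5% O2, or the first WT library. Once each library's trend along transcript length and GC was taken out, 7 of the 19 were called with NAC. Of all tested genes, 2644 were then called higher and 1910 lower. Fewer of the 19, and fewer of all tested genes, were also called without the second KO library at normal O2.

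Of the other 18 tested genes of the mixed-lineage kinase and JNK list, which includes the closest relative of MAP3K13, MAP3K12, edgeR called 0 in KO against WT, 6 had an unadjusted p under 0.05 and DESeq2 called 2. Of all tested genes, 1.34% were called higher and 0.622% lower. The 0 is not stable, as edgeR called 4 with the 4 libraries compared alone. In that fit, 738 of all tested genes were called higher and 386 lower. More of the 18, and more of all tested genes, were also called with either library with NAC left out. The median log2 fold change of the 18 was 0.21. At 5% O2, where 4.13% of all tested genes fell, 4 of the 18 fell: MAP3K10 (-0.73), MAPK8IP3 (-0.51), MAPK8IP1 (-0.48) and MAP3K11 (-0.42). All 4 calls were lost after the length and GC trend was removed, and also without either KO library at normal O2 or without the first at 5% O2. With NAC, 4 rose and 9 fell, where 23.8% of all tested genes rose and 20.8% fell. Those that fell include MAPK8IP2 (-1.31), MAP3K9 (-1.12), MAP3K10 (-0.96) and MAPK8IP1 (-0.90). MAPK8IP2 changed by -0.76 without the first library with NAC and by -2.18 without the second. After the trend was removed 5 of the 18 were called, where 2644 of all tested genes were called higher and 1910 lower. Of the other 8 tested oxidoreductases related to VAT1L, edgeR called 0 in KO against WT, 2 had an unadjusted p under 0.05 and DESeq2 called 1, with a median log2 fold change of -0.080. Against 1.34% and 0.622% of all tested genes called higher and lower, nothing is read from these counts. More of the 8, and more of all tested genes, were called with either library with NAC left out. With NAC, 5 rose and VAT1 fell (-0.46), with CRYZ (1.19), CRYZL1 (0.82) and PTGR2 (0.73) highest. Of all tested genes, 23.8% rose and 20.8% fell. After the trend was removed 2 of the 8 were called, where 2644 of all tested genes were called higher and 1910 lower. Nothing is read from these counts. Of the 3 tested ubiquilins, UBQLN2 fell (-0.65) and UBQLN4 fell (-0.37) with NAC, while UBQLN1 rose (0.38, adjusted p = 0.020 by edgeR). Removal of the length and GC trend left UBQLN1 at -0.00058 and no call, and UBQLN4 was not called either. Without the first library with NAC, UBQLN1 changed by 0.20 and was not called, nor was it without either KO library at normal O2. UBQLN4 was not called without the second of these (-0.31). At 5% O2, where 3.68% of all tested genes rose and 4.13% fell, edgeR called 0 of the T-box genes, with 0 at an unadjusted p under 0.05 and 0 by DESeq2 of 3 with an adjusted p. It called 0 of the crest genes, with 5 at an unadjusted p under 0.05 and 2 by DESeq2 of 10. Without the first or the second library with NAC, edgeR called more of the crest genes, and also more of all tested genes. It called 0 of the oxidoreductases (1 unadjusted, 0 of 8 by DESeq2) and 0 of the ubiquilins (0 unadjusted, 0 of 3 by DESeq2).

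Neighbouring genes on the chromosomes were examined next, because genes that lie close together can share a change. Within 1 Mb of the 4 genes, 36 other genes were tested, and edgeR called 0 of them in KO against WT, 9 had an unadjusted p under 0.05 and DESeq2 called 4 of 32 with an adjusted p. Of all tested genes, 1.34% were called higher and 0.622% lower, so 0 of 36 says nothing about the neighbours. With either library with NAC left out, edgeR called more of the neighbours, and also more of all tested genes. The median log2 fold change of the 36 was -0.025. By DESeq2, NTS (0.67, adjusted p = 0.010), EIF4G1 (0.40, 0.015) and EPHB3 (0.49, 0.025) were higher in KO, and EHHADH was lower. EIF4G1 and EPHB3 lie beside MAP3K13, and NTS beside ALX1. Of all tested genes, DESeq2 called 545 higher and 315 lower in KO. At 5% O2, POLR2H rose (0.34) and EIF4G1 fell (-0.42), where 3.68% of all tested genes rose and 4.13% fell, and neither call held without either KO library of normal or 5% O2 or without either WT library. With NAC, 7 of the 36 rose and 7 fell, beside 23.8% and 20.8% of all tested genes. Fewer of the 36, and fewer of all tested genes, were called with either KO library at normal O2 left out. The nearest tested gene upstream of MAP3K13, EHHADH, which encodes an enzyme of peroxisomal fatty acid oxidation, lies 28.9 kb away. EHHADH had 66 and 84 counts in WT, 12 and 16 in KO at normal O2, 5 and 25 at 5% O2, and 8 and 16 with NAC. On the log2 scale it changed by -2.53 (SE 0.70, adjusted p = 0.094 by edgeR), which missed the threshold, while DESeq2 gave -2.54 (adjusted p = 0.018). EHHADH and NUDT7 both passed when either library with NAC was left out, EHHADH at an adjusted p of 0.022 and 0.023 by edgeR and NUDT7 at 0.041 and 0.042. Over all alternatives for EHHADH the adjusted p ran from 0.00029 to 0.50. On the other side, TMEM41A lies 0.5 kb from MAP3K13 and changed by -0.07 (SE 0.13). LIPH, chosen after its value was seen, lies 17.2 kb away on that side and had -1.65 (SE 0.95), on 12 and 24 counts in WT and 8 and 4 in KO. DGKG, chosen in the same way, lies 658.1 kb away on that side and had a value of 1.70 (SE 0.74). It had 2 and 10 counts in WT and 22 and 20 in KO at normal O2, and edgeR did not call it. The nearest tested gene upstream of VAT1L is NUDT7, a peroxisomal enzyme gene, 46.3 kb away, which changed by -1.08 (SE 0.31, adjusted p = 0.10 by edgeR). WWOX, 119.5 kb to the other side, had a value of -0.25 (SE 0.21). Beside TBX15, WARS2 (-0.06, 41.7 kb away) and WDR3 (-0.04, 916.5 kb away) showed values within their SEs of 0.14 and 0.11. Beside ALX1, LRRIQ1 (-0.10, 7.4 kb away) and RASSF9 (1.58, 498.9 kb away) had SEs of 0.71 and 0.59. RASSF9 did not pass (adjusted p = 0.20 by edgeR), and LRRIQ1 had 16 and 14 counts in WT.

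**Figure D5:**
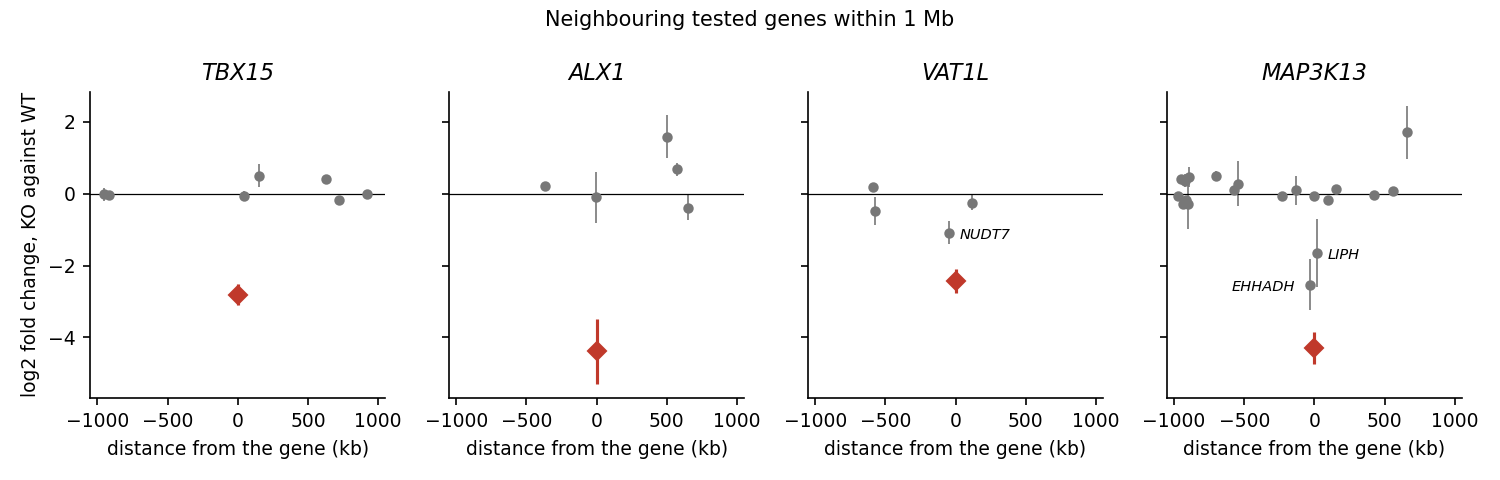
Log2 fold change in KO against WT of the tested genes within 1 Mb of each of the 4 genes (grey circles, bars for SEs) by distance in kb, with the gene itself as a red diamond. The lowest grey points are EHHADH at -2.53 and LIPH at -1.65, both beside MAP3K13, and NUDT7 lies at -1.08 beside VAT1L. The highest are DGKG at 1.70, also beside MAP3K13, and RASSF9 at 1.58 beside ALX1.

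By Pearson's r over all 8 libraries of log2 CPM (prior count 2), the genes most like TBX15 were PRPS1 (r = 0.99), PIGBOS1 (0.99) and KLHL4 (0.98). For ALX1 they were RNA28SN5 (0.99), PIP5KL1 (0.98) and DGKK (0.96), for VAT1L they were LOC101928595 (0.98), COL4A6 (0.98) and NLGN4X (0.98), and for MAP3K13 they were MYH2 (0.99), LINC02575 (0.98) and UBQLN1 (0.98). Any gene that differs between WT and KO libraries scores high by this measure, and the 4 genes themselves correlated with each other at between 0.67 (TBX15 with VAT1L) and 0.90 (ALX1 with VAT1L). TBX15 with ALX1 gave 0.70. PRPS1 showed a pattern like that of TBX15, at 352 and 347 CPM in WT, 138 and 137 CPM in KO at normal O2, 150 and 151 CPM at 5% O2, and 249 and 197 CPM with NAC.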

How the data were processed

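RNA sequencing of 8 libraries was analysed, in 4 groups of 2. The authors trimmed reads, mapped these to hg38 by HISAT2 and assigned them to genes by featureCounts at default settings, which ignore strand. The deposited values are raw counts, and the annotation is not stated. Low genes were removed by filterByExpr (minimum count 10), TMM factors scaled the rest, and edgeR 4.0.16 (R 4.3.3) fitted 1 term per group with no block. Its quasi-likelihood p-values were adjusted by Benjamini-Hochberg over 15916 genes and called under 0.05. SE is the size of the log2 change over the root of F. Alternatives used DESeq2 1.42.0 and mgcv 1.9.3. Floors (3 counts) cover counting error only. The 4 genes and the lists were chosen with earlier results of these data known. Named genes are the 4, UBQLN1, the 10 largest gaps and 5 largest in the mirror direction, the 3 most alike, called list members (at most 6 by size), nearest neighbours, neighbours called and the most abundant marker of a list. Mesenchymal genes, LIPH, DGKG and the X-linked group were named after their values were seen. Not every gene that this rule names is reported. The steps were tested on simulated counts. Sequences are from RefSeq (GRCh38.p14).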

Additional observations from a re-analysis of the deposited data

How the results depend on the processing

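The rise of TBX15 with NAC kept its direction and its call in all 16 alternatives, between 1.14 and 1.98 on the log2 scale. In KO against WT, the genes called higher and lower numbered 213 and 99. They numbered 545 and 315 by DESeq2, 782 and 470 with no filter beyond 1 count, and 738 and 386 with the 4 libraries alone. With the length and GC trend removed, chosen after seeing the data for this comparison, 99 were higher and 98 lower, and WARS2 changed sign (0.014). A call at a log2 change over 1 and unadjusted p under 0.05 gave 177 higher and 232 lower. At 5% O2, 586 rose and 657 fell, and the counts were 1081 and 1063 by DESeq2, 329 and 73 with the trend removed, 129 and 192 by that other call, 1039 and 1181 with no filter, and 1466 and 1543 with the 4 libraries alone. With NAC, 3785 rose and 3315 fell, against 2644 and 1910 with the trend removed and 577 and 858 by the other call. Removing the trend also changed the sign of MAP3K13 (0.059) and TBX15 (0.040) at 5% O2, and of ALX1 (-0.082), PTGR1 (-0.040) and UBQLN1 (-0.00058) with NAC; the cause was not tested. A block for replicate number gave 257 and 109 in KO against WT, 676 and 741 at 5% O2, 3806 and 3367 with NAC, and 1.59 for TBX15 with NAC. Replicate numbers do not pair the samples, with correlations between -0.023 and 0.082. Genes with the gap lower in KO numbered 33 at 2-fold and 4 at 8-fold. In the mirror direction they numbered 14 at 2-fold, 8 at a minimum of 0.5 CPM and 8 without the NAC libraries, the last chosen after seeing the data. A prior count of 0.5 kept 11 of the 12 genes most alike.

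With 1 library left out in turn, the lone sample is assumed to vary like the other groups. ALX1 ran from -8.95 to -3.36 in KO against WT, from 0.57 to 6.16 at 5% O2 and from -0.61 to 4.98 with NAC. The values -8.95, 6.16 and 4.98 leave out the first KO library, so they are fitted against 0 counts and are no bounds. Genes called in KO against WT ran from 29 (without the second KO or the first WT library) to 826 (without the first NAC library) higher and from 34 to 485 lower. LRRIQ1 ran from -1.10 to 0.50, WARS2 from -0.13 to 0.0017 and WDR3 from -0.18 to 0.10. At 5% O2, 29 to 1320 rose and 5 to 1443 fell, MAP3K13 ran from -0.95 to 0.37, TBX15 from -0.23 to 0.17 and VAT1L from -0.039 to 0.20. With NAC, MAP3K13 ran from -0.093 to 0.74 and VAT1L from -0.95 to 0.48. Genes with the mirror gap numbered 5 to 12.

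Depth limits ALX1 and MAP3K13 most, with at most 12 and 16 counts in any KO library. With 2 libraries per group and clones not named, genotype and clone cannot be told apart.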

Other observations

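Several genes lower in KO lay together on the X chromosome, a group chosen after its values were seen. Genotype and clone cannot be told apart for it. Of 30 genes with a known position and a gap of at least 2-fold lower in KO, 7 lay on X (23.3%), against 3.71% of all tested genes and 1 of 14 (7.14%) with the gap in the mirror direction. In a window of 2.5 Mb whose first and last tested genes are RBM41 and IRS4, 14 genes were tested, and 10 of them were lower in KO against WT by edgeR (adjusted p under 0.05), where 0.622% of all tested genes were lower. The median log2 fold change of the 14 was -1.17. They include PRPS1 (-1.34, adjusted p = 4.3e-05), an enzyme of nucleotide synthesis, PSMD10 (-1.48), TSC22D3 (-1.58), MID2 (-1.87) and TEX13B (-2.78). COL4A6 (-0.69), one of the genes most like VAT1L in pattern, lies in the same stretch. VSIG1 was called higher, with 0 counts in both WT libraries and between 0.392 and 1.12 CPM in the KO libraries. LOC101928335 also had a value above 0 (1.59) but was not called.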
